A study of Mus musculus with 30 samples.

Results

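The opioid system of the mouse was followed here at the level of chromatin through 8 genes, namely the peptide precursors Penk, Pdyn, Pomc and Pnoc and the receptors Oprm1, Oprd1, Oprk1 and Oprl1. Every region of an ATAC-seq peak table that overlapped the RefSeq body of one of these genes on GRCm38, extended by 10 kb on both sides, was taken as a member. This gave 70 of the 257149 regions, at 7 of the 8 genes. Oprk1, the kappa receptor gene, had no region and therefore has no value below.

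Opioid peptides are cut from larger precursors by prohormone convertases, stored in dense core vesicles and released from neurons. Penk encodes the enkephalins, Pdyn the dynorphins, Pomc beta-endorphin together with melanocortins and adrenocorticotropin, and Pnoc nociceptin. The receptors couple to inhibitory G proteins, which lower cyclic AMP, open inwardly rectifying potassium channels and close presynaptic calcium channels. Oprm1 encodes the mu receptor, Oprd1 the delta receptor and Oprl1 the nociceptin receptor. In the hippocampus, dynorphin and enkephalin are known from granule cells and their mossy fibres, and mu and delta receptors are known from inhibitory interneurons.

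Nuclei were taken from the ventral hippocampus of 30 mice of both sexes, 50000 nuclei a library, and each library came from 1 animal. Chronically restrained mice had been held in a tube on 10 consecutive days and handled mice had only been lifted by the tail. After 24 h of single housing, part of each set was restrained and collected 45 min after the restraint began, and the rest were collected from the home cage, labelled 0 min. The groups were chronic restraint with acute restraint (chronic 45 min, 7 mice, 4 female and 3 male), chronic restraint alone (chronic 0 min, 8 mice, 4 of each sex), handling with acute restraint (handled 45 min, 7 mice, 3 female and 4 male) and handling alone (handled 0 min, 8 mice, 4 of each sex). Each of the 4 batches in the labels held all 4 groups, and no strain, age or allele is given in the sources used here.

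A library held 26104576 to 55294838 counts in peaks. Levels are CPM, counts relative to library size with TMM scaling, and they are compared between genes only per kb of peak. The handled 0 min female numbered 45 (batch 4) stood apart, with 35.5% of its counts in peaks at gene ends, against 30.3% to 33% in the other 29 libraries. Most of the main changes, and the group orders, in which it holds the top value are also given without it. The Oprd1 changes, among others, are given only with it. Marker genes of hippocampal neurons, glia, striatum and hypothalamus had peaks, with the choroid plexus gene Otx2 as the only marker without a peak. This cannot check the tissue, because only 19.4% of protein coding genes had no peak within 10 kb. By CPM per kb, the mean percentile was 60.4 for pyramidal neuron genes, 36.8 for granule cell genes and 29.1 for interneuron genes. It was 37.1 for striatal genes and 32.4 for genes of hypothalamus and thalamus. A bulk count cannot tell fewer nuclei of a cell type apart from less open chromatin per nucleus.

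The start regions of 5 members were held in the RefSeq promoter table (GRCm38.p6, 250 bases before to 50 after the start), and they are printed 5′ to 3′ with each CG dinucleotide in capitals, because CG content separated start regions with a peak from those without one across the genome. Over all 32851 promoter windows, 95.5% of those with at least 15 CG dinucleotides were overlapped by a peak, against 58.2% of those with 5 to 14 and 19.5% of those with 0 to 4. The windows shown lie at chr2:129699889-129700188 (Pdyn, minus strand), chr12:3954695-3954994 (Pomc, plus strand), chr10:6788326-6788625 (Oprm1, plus strand, a start inside the gene), chr4:132144437-132144736 (Oprd1, minus strand) and chr2:181714766-181715065 (Oprl1, plus strand).
Pdyn: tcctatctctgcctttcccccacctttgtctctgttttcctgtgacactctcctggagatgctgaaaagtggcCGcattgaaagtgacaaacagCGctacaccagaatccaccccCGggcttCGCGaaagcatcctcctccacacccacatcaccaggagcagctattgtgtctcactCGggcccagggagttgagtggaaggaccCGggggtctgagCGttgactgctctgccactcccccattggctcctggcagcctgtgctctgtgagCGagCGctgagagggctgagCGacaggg
Pomc: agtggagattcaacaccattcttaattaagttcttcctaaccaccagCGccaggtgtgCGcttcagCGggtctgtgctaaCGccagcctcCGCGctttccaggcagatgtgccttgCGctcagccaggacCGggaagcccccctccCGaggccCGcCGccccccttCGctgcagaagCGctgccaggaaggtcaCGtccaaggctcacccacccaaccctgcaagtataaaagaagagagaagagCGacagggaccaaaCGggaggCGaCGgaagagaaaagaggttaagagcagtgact
Oprm1: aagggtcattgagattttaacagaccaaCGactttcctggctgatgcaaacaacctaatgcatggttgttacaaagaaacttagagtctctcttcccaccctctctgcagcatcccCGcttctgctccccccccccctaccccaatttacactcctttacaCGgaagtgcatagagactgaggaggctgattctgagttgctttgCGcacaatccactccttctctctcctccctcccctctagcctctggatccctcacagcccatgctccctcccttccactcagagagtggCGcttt
Oprd1: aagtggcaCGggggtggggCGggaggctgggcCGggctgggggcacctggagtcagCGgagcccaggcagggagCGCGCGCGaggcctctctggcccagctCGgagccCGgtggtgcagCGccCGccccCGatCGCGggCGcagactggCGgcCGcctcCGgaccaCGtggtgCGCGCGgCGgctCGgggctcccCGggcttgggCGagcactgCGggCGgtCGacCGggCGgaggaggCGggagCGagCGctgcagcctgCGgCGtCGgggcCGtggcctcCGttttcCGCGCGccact
Oprl1: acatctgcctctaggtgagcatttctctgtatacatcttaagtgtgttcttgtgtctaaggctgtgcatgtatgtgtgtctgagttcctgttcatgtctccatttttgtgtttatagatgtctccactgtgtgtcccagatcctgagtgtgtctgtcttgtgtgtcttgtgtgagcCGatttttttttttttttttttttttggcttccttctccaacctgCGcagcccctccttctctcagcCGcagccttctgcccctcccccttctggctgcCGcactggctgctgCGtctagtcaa

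Oprd1 had the start region with the most CG dinucleotides of these 5, 43 in 300 bases, and it lay under a peak of 1860 bp. The Pomc window held 18 and was not overlapped by any peak, although 95.5% of the windows with at least 15 were. It stood at percentile 71.1 of all windows by CG count, near the lower bound of that class. Pdyn held 11 and Oprl1 5, and both were overlapped. At Oprm1 the outermost start (chr10:6758343-6758642) held 3 CG dinucleotides and had no peak, and the start printed above, about 30 kb further in, held 5 and lay under the first Oprm1 peak. A second Pdyn start (chr2:129698609-129698908) held 5 and had no peak.

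The 10 promoter windows of members were also searched on both strands for motifs of stress and activity responses. The cAMP response element (TGACGTCA), the enkephalin CRE-2 core (TGCGTCA), the AP-1 element (TGANTCA, whose letters neither of the 2 before it contains), the palindromic glucocorticoid response element and the NBRE (AAAGGTCA) had 0 matches in them. In all windows the shares with a match were 1.79%, 2.12%, 7.81%, 0.00913% and 1.51% in that order. None of the 10 windows belongs to Penk, Pnoc or Oprk1, so the enkephalin element was not searched at Penk itself. With shares this low, 0 matches in 10 windows cannot set the members apart from other genes. The absence says only that these letters are not in the 300 bases of each window.

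Open chromatin was spread unevenly over the loci. Oprm1, a gene of 279617 bp, held 22 peaks, but 19 of them also lie in Ipcef1, a gene that overlaps it. Oprd1 held 11 peaks, Pomc, Pnoc and Oprl1 9 each, Pdyn 7 and Penk 3. Of the Pomc peaks, 6 lie in the neighbour Efr3b, and 1 of the Pnoc peaks lies in Zfp395. The nearest peak to Oprk1 was 124844 bp away, and 19.4% of the 21887 protein coding genes likewise had no peak in such a window.

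**Figure D1:**
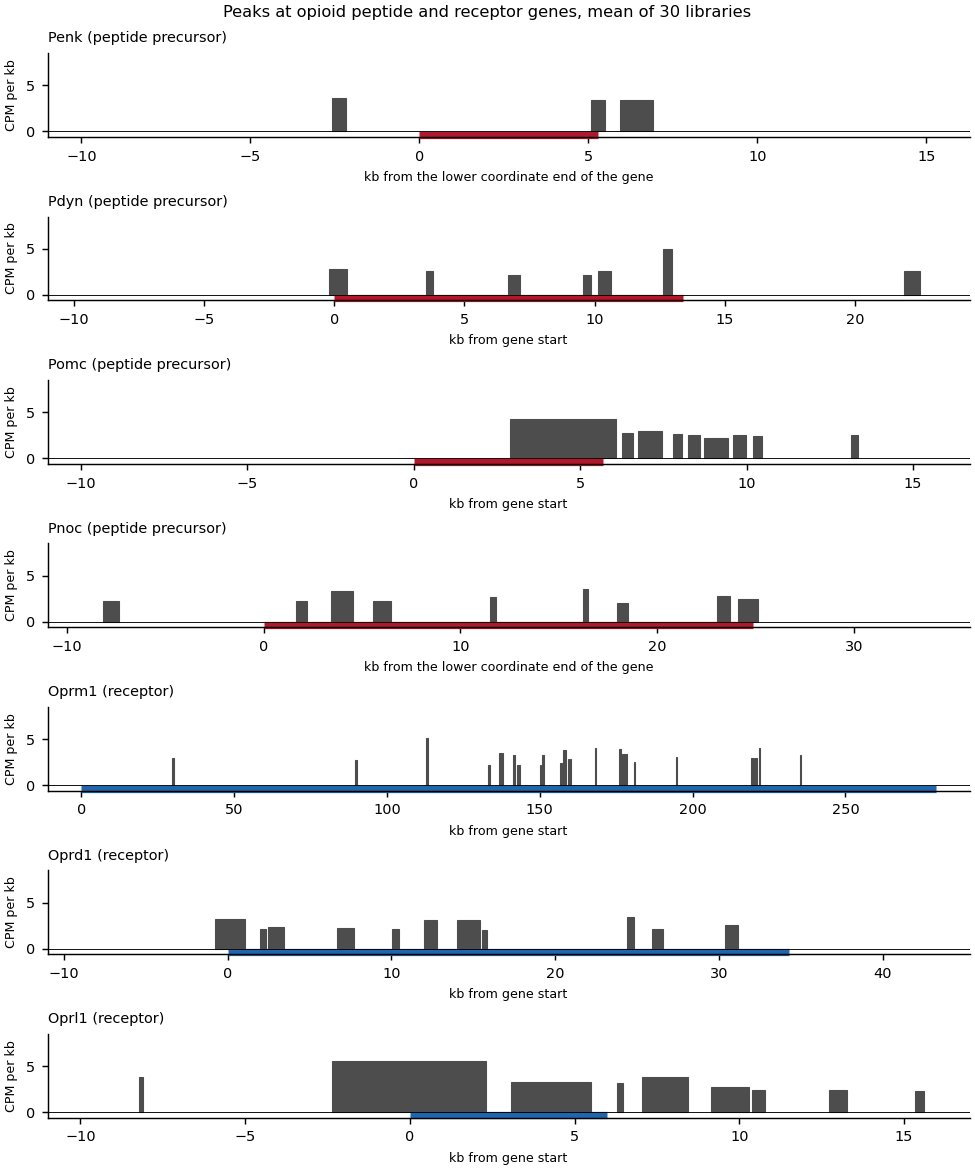
Position of the 70 member peaks along each gene with a peak; the horizontal axis is distance in kb from the gene start (from the lower coordinate end for Penk and Pnoc, whose strand is not in the promoter table), bar width is peak width and bar height is the mean of 30 libraries in CPM per kb. The coloured line is the gene body, red for peptide precursors and blue for receptors; the wide peak over the start of Oprl1 reaches 5.57 CPM per kb, and the wide Pomc peak lies over the end of its gene and not over its start.

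Among the peptide precursors, Pdyn peak 2 and Pomc peak 1 ranked at percentiles 93.9 and 90.2 of all peaks by CPM per kb and the 3 Penk peaks at 77.6 to 82.0, whereas the peaks at gene ends ranked low among peaks of that kind. The gene-end peak of Penk (peak 3, chr4:4139474-4140451, 659 bp past the gene's higher coordinate end) averaged 3.38 CPM per kb, that of Pdyn (peak 7, chr2:129699437-129700122) 2.76 and that of Pnoc (peak 9, chr14:65424809-65425792) 2.44. Among 14995 genes with a peak within 1 kb of the start, or of either end where no strand is known, these ranked at percentiles 16.4, 7.88 and 3.63, and the median was 5.73 CPM per kb. Pomc had no such peak: its widest region (peak 1, chr12:3957835-3961011) covers the downstream end of the gene, reached 4.30 CPM per kb and held 61.6% of all counts of the window.

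Among the receptors, Oprl1 had the most accessible start. Its peak 2 (chr2:181712646-181717317) spans 4672 bp over all 3 annotated starts, averaged 5.57 CPM per kb, percentile 47.7 of start peaks, and held 55.9% of the counts of the window. The Oprd1 start peak (peak 11, chr4:132143415-132145274) averaged 3.18 CPM per kb, percentile 13.6, over the CG-rich sequence printed above. Oprm1 had no peak within 1 kb of its outermost start, and the peak at its inner start (peak 1, chr10:6788447-6789121) averaged 2.96 CPM per kb.

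Summed over all peaks of a gene and divided by their length, the levels were 4.17 CPM per kb for Oprl1, 3.43 for Penk, 3.43 for Pomc, 3.24 for Oprm1, 2.80 for Pdyn, 2.74 for Oprd1 and 2.62 for Pnoc. The median of the 17633 genes with a peak was 3.97. Oprl1 thus stood at percentile 56.5 of all genes, and Pnoc, Oprd1 and Pdyn at 2.87, 4.63 and 5.87. The single member peaks had means of 17.9 to 1029 counts a library, so the precision differs widely among them.

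The first comparison asked whether 45 min of acute restraint changed accessibility at these genes. None of the 70 peaks and none of the 7 gene windows passed the threshold, an adjusted p under 0.05 in edgeR's quasi-likelihood test with Benjamini-Hochberg adjustment over all features, for the acute effect averaged over both histories. Among all features tested 0.116% of peaks (299) and 1.17% of gene windows (207, 0.72% higher and 0.454% lower) passed it, so that 0 is close to what that share gives among so few members. Without adjustment, 4 of the 70 member peaks (5.71%) had a p under 0.05, against 7.17% of all peaks, and 1 of the 7 windows did, against 12.6% of all windows. DESeq2 also called no member. The 95% intervals of the 7 window changes lay between log2 changes of -0.13 and 0.091, which is -8.53% to 6.48% at 45 min relative to 0 min.

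Oprm1 was the member with the smallest p. Its window had 2.88, 3.06 and 3.31 CPM per kb (lowest, median and highest) in chronic 45 min mice, 3.11, 3.27 and 3.50 in chronic 0 min mice, 3.02, 3.21 and 3.56 in handled 45 min mice and 3.09, 3.25 and 4.19 in handled 0 min mice. The ranges of all 4 groups overlap, and the highest value is that of animal 45. The averaged acute log2 change was -0.060 with a standard error (SE) of 0.022 (unadjusted p = 0.0108, edgeR adjusted p = 0.196), and it was -0.054 without that animal. The change was negative in each of the 4 batches, between -0.075 and -0.045, which are parts of the same data and not separate evidence. It was -0.087 (adjusted p = 0.520) in chronic mice and -0.032 (adjusted p = 0.882) in handled mice, and the difference of these effects was -0.055 (SE 0.044, adjusted p = 1.00). Without animal 45 the change in handled mice was -0.021 and the difference -0.065. Of the 22 Oprm1 peaks 17 had a negative fitted value, but these come from the same libraries and are not independent results. With the 19 peaks shared with Ipcef1 left out, a step added after the data were seen, the window change was -0.098 with an adjusted p of 0.523.

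The single Oprm1 peak with the smallest p was peak 14 (chr10:6926534-6927084), inside the gene and inside Ipcef1. It had 1.58, 1.70 and 2.48 CPM in chronic 45 min mice, 1.95, 2.34 and 2.78 in chronic 0 min mice, 1.52, 2.23 and 2.50 in handled 45 min mice and 1.79, 2.29 and 3.94 in handled 0 min mice. Most chronic 45 min values lie below the chronic 0 min range, while the handled groups overlap through most of theirs. The averaged acute log2 change was -0.24 (SE 0.090, edgeR adjusted p = 0.446), -0.20 without animal 45, and it was negative in all 4 batches. The largest batch value, -0.44 in batch 4, had 2 mice at 45 min. Animals 45 and 71 of that batch stood far from their groups at this peak. Because the peak was picked by its p in these same libraries, the batch signs are not separate evidence. At the inner start of Oprm1, peak 1 had an acute log2 change of 0.12 (SE 0.083, adjusted p = 0.840).

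The Oprl1 and Oprd1 groups overlapped throughout. Oprl1 windows held 3.94, 4.27 and 4.43 CPM per kb in chronic 45 min mice, 3.88, 4.09 and 4.40 in chronic 0 min mice, 3.89, 4.19 and 4.42 in handled 45 min mice and 3.85, 4.09 and 4.85 in handled 0 min mice. Its averaged acute log2 change of 0.023 had a 95% interval of -0.020 to 0.066, and its start peak had 0.025 (SE 0.043). Without animal 45 these values were 0.023 and 0.048 (SE 0.035). Oprd1 windows held 2.49, 2.71 and 2.88 CPM per kb in chronic 45 min mice, 2.44, 2.73 and 3.05 in chronic 0 min mice, 2.50, 2.80 and 3.06 in handled 45 min mice and 2.48, 2.62 and 3.01 in handled 0 min mice. The Oprd1 log2 change was 0.0088 (SE 0.034), and that of its start peak 0.10 (SE 0.060, adjusted p = 0.773). Both include animal 45, which held the top handled 0 min Oprd1 values. Leaving it out took the handled 0 min mean of the Oprd1 window from 2.69 to 2.64 CPM per kb.

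Among the peptide precursors, Penk and Pdyn are classical targets of activity-dependent transcription, and neither window passed the test. Penk windows held 2.99, 3.27 and 3.72 CPM per kb in chronic 45 min mice, 2.90, 3.61 and 3.82 in chronic 0 min mice, 3.00, 3.49 and 3.71 in handled 45 min mice and 2.87, 3.41 and 4.40 in handled 0 min mice. The Penk log2 change was -0.028 with an interval of -0.13 to 0.072, and the Penk gene-end peak had a log2 change of -0.090 (SE 0.075). Without animal 45 they were -0.020 and -0.067. That peak (peak 3) lies 659 bp past the gene, whereas peak 2 (chr4:4138613-4139029) overlaps the same end of the gene. Peaks 1 and 2 of Penk had positive acute log2 changes, the 2 values being 0.015 and 0.084. Pdyn windows held 2.59, 2.82 and 3.03 CPM per kb in chronic 45 min mice, 2.61, 2.84 and 3.09 in chronic 0 min mice, 2.41, 2.84 and 2.99 in handled 45 min mice and 2.57, 2.72 and 3.37 in handled 0 min mice. The groups overlapped throughout, and the Pdyn log2 change was -0.0092 with an interval of -0.087 to 0.069, and -0.0049 without animal 45.

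Pomc and Pnoc windows did not pass the test for acute restraint either, with log2 changes of -0.0072 (SE 0.034) and 0.0091 (SE 0.040). Pnoc windows held 2.35, 2.62 and 2.92 CPM per kb in chronic 45 min mice, 2.32, 2.58 and 2.99 in chronic 0 min mice, 2.48, 2.67 and 2.83 in handled 45 min mice and 2.28, 2.59 and 2.85 in handled 0 min mice. Within that gene, peak 6 (chr14:65416883-65417143) had the largest fitted acute increase of the 70 peaks, a log2 change of 0.29 (SE 0.12, edgeR adjusted p = 0.575), and 0.35 without animal 45. Peak 6 had 0.725, 1.10 and 1.62 CPM in chronic 45 min mice, 0.485, 0.834 and 0.945 in chronic 0 min mice, 0.643, 0.958 and 1.40 in handled 45 min mice and 0.581, 0.866 and 1.63 in handled 0 min mice. The chronic groups separate more than the handled groups do, but the difference of the 2 acute effects, 0.40 (SE 0.24), had an adjusted p of 1.00. It was 0.26 (SE 0.24) without animal 45, and the acute log2 change in handled mice was then 0.22 (SE 0.17), against 0.091 with it.

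**Figure D2:**
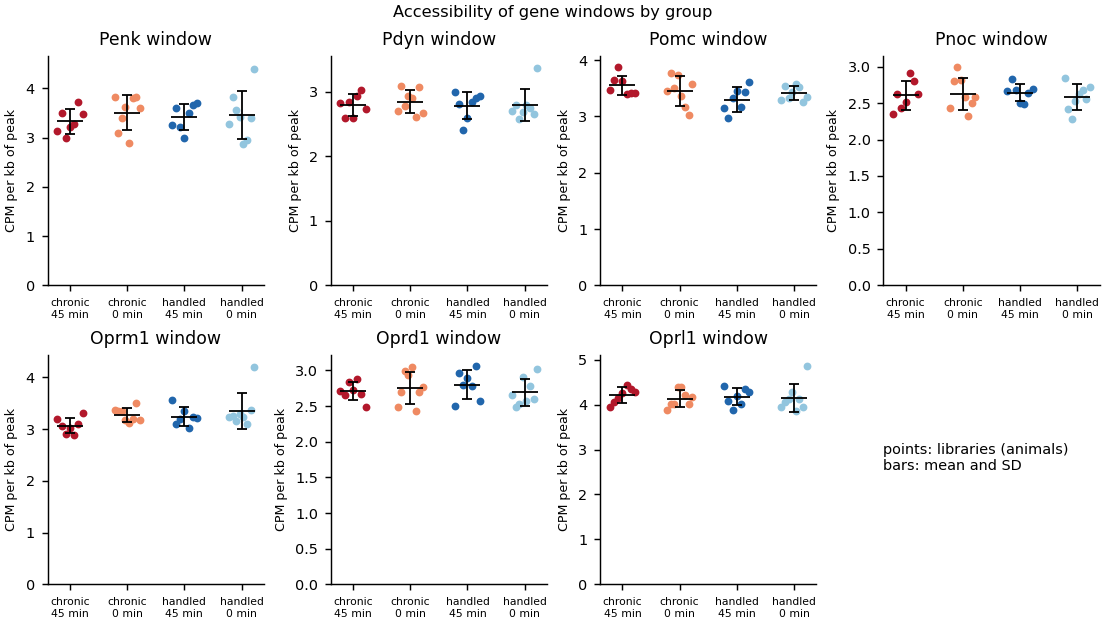
Level of each gene window in every library, in CPM per kb of peak, by group; points are animals and bars are the mean and SD. The groups overlap in each panel, and the highest handled 0 min points of Penk, Pdyn, Oprm1, Oprd1 and Oprl1 are all animal 45.

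The second comparison asked what 10 days of restraint left behind. Averaged over both times, 0 of the 70 member peaks and 0 of the 7 windows were called, against 0.0% of all peaks (0) and 0.0% of all windows (0) in edgeR, and DESeq2 called 1 peak of all, which is no member. Without adjustment 4 member peaks (5.71%) had a p under 0.05, against 5.44% of all peaks, and 1 window did, against 10.5% of all windows. The intervals of the 7 windows spanned log2 changes of -0.092 to 0.14, which is -6.15% to 10.4% in chronic relative to handled mice.

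Pomc had the smallest p among the windows. Its window held 3.40, 3.48 and 3.87 CPM per kb in chronic 45 min mice, 3.03, 3.48 and 3.77 in chronic 0 min mice, 2.97, 3.34 and 3.61 in handled 45 min mice and 3.25, 3.39 and 3.58 in handled 0 min mice. The chronic 45 min mice sit higher than the handled 45 min mice, with overlapping ranges, and the 0 min groups overlap more. The averaged chronic log2 change was 0.073 (SE 0.034, unadjusted p = 0.0406, edgeR adjusted p = 0.448), 0.056 without animal 45, and at 45 min it was 0.12 (SE 0.050, adjusted p = 0.936). Within batches 1 to 4 the averaged chronic log2 difference was 0.16, 0.12, -0.040 and 0.012, so it was near 0 or negative in batches 3 and 4. Most of the window's counts come from peak 1, whose own chronic log2 change was 0.068 (SE 0.044).

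The Pomc values were also split by sex. Females held 3.36, 3.61 and 3.77 CPM per kb after chronic restraint (8 mice) and 3.14, 3.35 and 3.52 after handling (7 mice). Males held 3.03, 3.45 and 3.87 after chronic restraint (7 mice) and 2.97, 3.38 and 3.61 after handling (8 mice). The female ranges overlap in part and the male ranges overlap almost wholly, but the difference of the chronic effects, female minus male, was 0.16 (SE 0.065) with an adjusted p of 0.269 in edgeR, and 0.12 (SE 0.064, adjusted p = 0.644) without animal 45. Fitted alone, females gave a chronic log2 change of 0.16 (adjusted p = 0.099) and males one of -0.00015.

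At single peaks of the precursors, chronic restraint gave fitted values of both signs. Pdyn peak 2 (chr2:129686959-129687319), in the gene body and among the most accessible member peaks at 4.97 CPM per kb, had 1.13, 1.40 and 1.83 CPM in chronic 45 min mice, 1.27, 1.80 and 2.07 in chronic 0 min mice, 1.16, 2.02 and 2.35 in handled 45 min mice and 1.33, 1.89 and 3.15 in handled 0 min mice. Chronic medians were below handled ones at both times. Its averaged chronic log2 change was -0.26 (SE 0.095, edgeR adjusted p = 0.897), negative in all 4 batches and -0.21 without animal 45. Peak 2 was picked by its p in these same libraries, so its batch signs are not separate evidence. Pdyn peak 1, beyond the gene, had 0.22 (SE 0.097, adjusted p = 0.912), also with one sign in all 4 batches. The Pdyn window as a whole had 0.033 (SE 0.038) with animal 45 included.

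The smallest unadjusted p among the member peaks in any comparison belonged to Pomc peak 9 (chr12:3968091-3968298), a region of 208 bp inside Efr3b with a mean of 20.9 counts. It had 0.388, 0.468 and 0.677 CPM in chronic 45 min mice, 0.329, 0.455 and 0.535 in chronic 0 min mice, 0.368, 0.482 and 0.672 in handled 45 min mice and 0.521, 0.679 and 0.892 in handled 0 min mice. The handled 0 min mice had the highest median, the other 3 medians lay close together, and all ranges overlap. At 0 min the chronic log2 change was -0.67 (SE 0.19, unadjusted p = 5.4e-04), which the adjustment over all peaks took to 0.997. The averaged chronic change was -0.32 (SE 0.14, adjusted p = 0.912). Without animal 45, which holds the value of 0.892, these changes were -0.60 (SE 0.20, unadjusted p = 0.0028) and -0.28 (SE 0.14). Neighbouring peak 8, also in Efr3b, had the opposite sign, 0.31 (SE 0.14, adjusted p = 0.912).

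The remaining windows had averaged chronic log2 changes of -0.040 (SE 0.022, adjusted p = 0.516) for Oprm1, 0.017 (SE 0.040) for Pnoc, 0.016 (SE 0.021) for Oprl1, 0.0088 (SE 0.033) for Oprd1 and 0.0081 (SE 0.049) for Penk. Oprm1 had a negative sign in all 4 batches, and 16 of its 22 peaks were negative, again over the same libraries. Its value was 0.019 when the peaks shared with Ipcef1 were left out. The start peaks of Oprl1 and Oprd1 had -0.036 (SE 0.042) and -0.076 (SE 0.059). Without animal 45 the Oprl1 peak had -0.00024, the Oprm1 window -0.033 and the Penk window 0.019. The Oprd1 values include that animal.

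**Figure D3:**
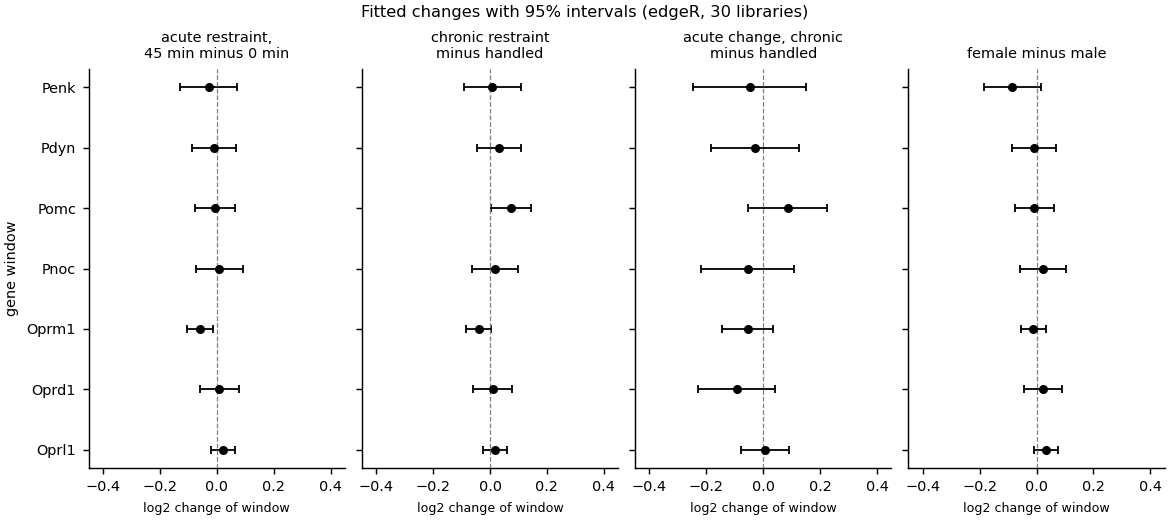
Fitted log2 changes of the 7 gene windows with 95% intervals from edgeR over 30 libraries, for acute restraint (45 min minus 0 min), chronic restraint minus handled, their interaction and female minus male. Among the acute and chronic intervals only those of Oprm1 (acute, -0.10 to -0.015) and Pomc (chronic, 0.0033 to 0.14) leave out 0, and neither passed the adjusted threshold.

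The third comparison was whether the acute effect differed with history. No member peak and no member window was called, against 0.0% of all features (0 peaks and 0 windows). Without adjustment 2 member peaks (2.86%) had a p under 0.05, against 3.03% of all peaks, and 0 windows did, against 1.35%. Both histories were also tested apart. In chronic mice 0 members were called against 0.00272% of all peaks (7) and 0.051% of all windows (9, all higher). Without adjustment 4 member peaks had a p under 0.05 there, against 4.73% of all peaks, and 1 window, against 6.83%. In handled mice 0 members were called against 0.0109% of all peaks (28, 0.00972% higher and 0.00117% lower) and 0.142% of all windows (25, 0.119% higher and 0.0227% lower). Without adjustment 3 member peaks had a p under 0.05 there, against 5.52% of all, and 0 windows, against 7.81%. The chronic effect taken at each time also called 0 members and 0.0% of all features. At 45 min 3 member peaks had an unadjusted p under 0.05, against 3.78% of all, and 2 windows, against 4.83%, and at 0 min 2 member peaks did, against 4.6%, and 0 windows, against 5.66%. DESeq2 called no member in any of these. The interaction values of the windows ran from -0.094 (Oprd1) to 0.085 (Pomc) on the log2 scale, and their intervals reached from -0.25 to 0.22, wider than for the averaged effects.

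**Figure D4:**
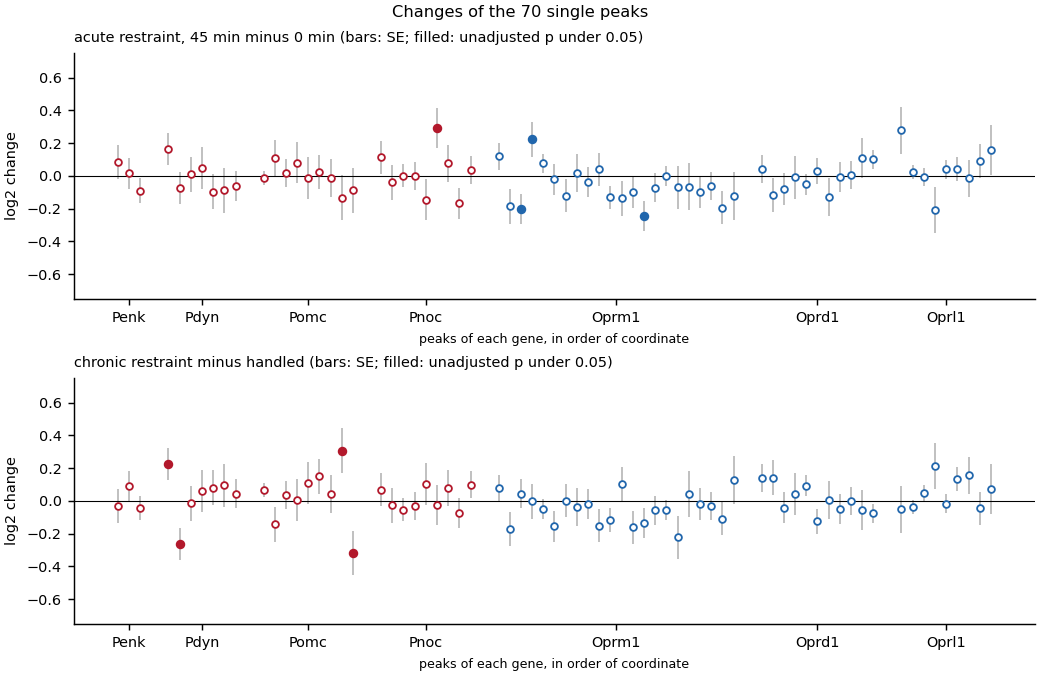
Log2 change of each of the 70 single peaks with its SE, ordered by coordinate within each gene (red, peptide precursors; blue, receptors); the upper panel is acute restraint, 45 min minus 0 min, and the lower panel is chronic restraint minus handled. The 4 filled points in each panel have an unadjusted p under 0.05 and none passed adjustment; most Oprm1 points in the upper panel lie below 0.

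Across the 4 groups, the order of mean levels differed from gene to gene. For Oprm1 the order, highest first, was handled 0 min, chronic 0 min, handled 45 min and chronic 45 min, and for Pomc it was chronic 45 min, chronic 0 min, handled 0 min and handled 45 min. The highest group mean was 1.09 times the lowest for Oprm1 and 1.08 times for Pomc. In the other 5 genes it was 1.02 to 1.05 times, a gap smaller than the mean SD within groups. Without animal 45 the Oprm1 order was chronic 0 min (3.28 CPM per kb), handled 45 min (3.24), handled 0 min (3.23) and chronic 45 min (3.07), with a ratio of 1.07, so the first place of handled 0 min rests on that library. The Pomc order and its ratio of 1.08 stayed, and the ratios of the other 5 genes were then 1.03 to 1.06, again with gaps under the mean SD. Handled 0 min was then the lowest group for Penk, Pdyn, Pnoc, Oprd1 and Oprl1. With all libraries, the gap between highest and lowest group mean was above the mean SD within groups for Oprm1 (0.286 against 0.203 CPM per kb). The same held for Pomc (0.254 against 0.194). In all 7 genes each of the 6 pairs of groups overlapped in range. The share of all genes with such overlap was not counted, so this does not set the members apart from other genes.

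**Figure D5:**
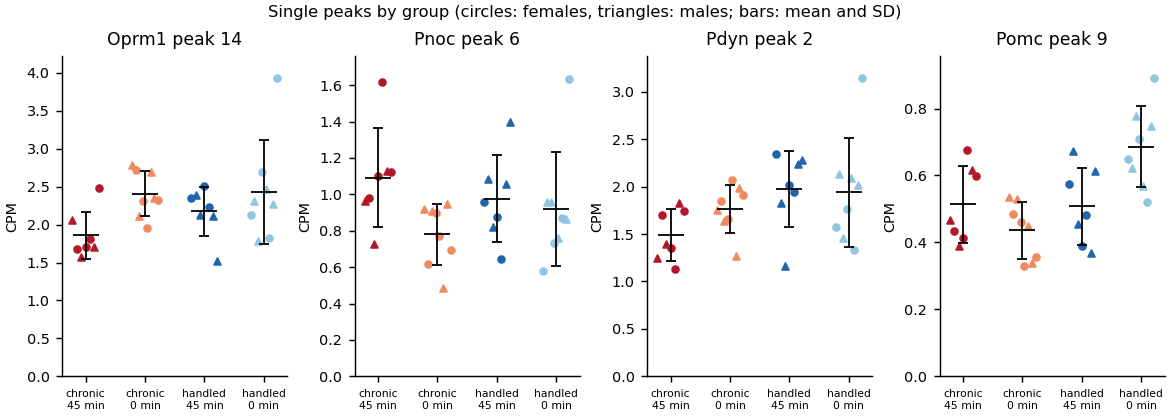
Level of 4 single peaks in every library, in CPM, by group; circles are females, triangles males, and bars the mean and SD. For Pomc peak 9 the handled 0 min mice lie highest, between 0.521 and 0.892 CPM, and in every panel the highest handled 0 min point is animal 45.

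Sex was balanced in the design and was compared over all groups. None of the member peaks or windows was called between females and males, against 0.035% of all peaks (90, 0.0327% higher and 0.00233% lower in females) and 0.454% of all windows (80, 0.42% higher and 0.034% lower). Without adjustment 5 member peaks (7.14%) had a p under 0.05, against 5.37% of all, and 0 windows did, against 7.26%, and DESeq2 called no member. Oprm1 peak 18 (chr10:6953183-6953413), in Ipcef1 too, had the smallest, with 0.376, 0.869 and 1.09 CPM in 15 females and 0.289, 0.593 and 0.895 in 15 males. Its ranges overlap widely, and its log2 change, female minus male, was 0.46 (SE 0.14, edgeR adjusted p = 0.670). Of the windows, Penk had the largest value, -0.085 (SE 0.049, adjusted p = 0.752; -0.096 without animal 45), with 2.90, 3.28 and 4.40 CPM per kb in females and 2.87, 3.61 and 3.83 in males.

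Acute and chronic effects were also set against each other between the sexes. No member was called for either difference, against 0.000389% of all peaks (1) for the acute effect and 0.0% (0) for the chronic effect, and no window of any gene was called for either (0.0%). For the acute effect 2 member peaks had an unadjusted p under 0.05, against 3.72% of all, and 1 window, against 3.96%. For the chronic effect 3 member peaks did, against 9.27%, and 1 window, against 15.4%. For Oprd1, females held 2.49, 2.72 and 2.90 CPM per kb at 45 min and 2.65, 2.84 and 3.05 at 0 min, and males held 2.57, 2.80 and 3.06 at 45 min and 2.44, 2.55 and 2.99 at 0 min. The medians move in opposite directions in the 2 sexes within overlapping ranges. The difference of the acute log2 changes, female minus male, was -0.14 (SE 0.064, adjusted p = 0.995).

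Genes that act around the peptides and receptors were counted as a list of 45, of which 43 had peaks. They take in the processing and breakdown enzymes of the peptides, G proteins and their regulators, receptor kinases and arrestins, the potassium and calcium channels and adenylyl cyclases downstream, and neighbouring neuropeptides that modulate opioid signalling. Of their 1348 peaks 1 was called higher and 0 lower for the averaged acute effect, against 0.0731% higher and 0.0432% lower among all peaks, with a median log2 change of 0.0042 against -0.0025 over all peaks. This 1 call is close to what the share over all peaks gives among 1348 peaks, so it does not set the list apart. The called peak lies at Adcy5 (chr16:35182504-35184269), an adenylyl cyclase that opioid receptors inhibit in the striatum, a tissue not sampled here. It averaged 6.86 ± 0.51 CPM in chronic 45 min mice, 5.65 ± 0.41 in chronic 0 min mice, 6.86 ± 0.77 in handled 45 min mice and 5.59 ± 0.68 in handled 0 min mice (SD). Its log2 change was 0.30 (SE 0.057, edgeR adjusted p = 0.0043), with animal 45 included. In the other comparisons, sex included, 0 peaks of this list were called, and 0 of its 43 windows were called in any.

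Marker genes of cell types were set beside these values. In each list the summed level overlapped between all groups, for instance 89.0 to 102 CPM for granule cells in chronic 45 min mice and 88.1 to 119 CPM in handled 0 min mice, and 130 to 147 and 130 to 160 CPM for interneurons. The oligodendrocyte gene Mobp was the exception among single markers: its window rose over acute restraint by 0.16 on the log2 scale (edgeR adjusted p = 2.6e-05), with no other marker window called for the averaged acute effect. The part of cell composition in the member values was not tested.

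Levels of the opioid genes were also set against each other across animals. Across the 30 libraries the correlation of log2 window levels between pairs of members ran from -0.48 (Pomc and Oprm1) to 0.47 (Pnoc and Oprd1), as a description over libraries that share depth and batch effects. The gene on another chromosome most alike to each member was Dgkb for Oprm1 (Pearson r = 0.82), Phf7 for Pomc (0.80), Frrs1l for Pnoc (0.73), Iscu for Oprl1 (0.70), Gm38690 for Penk (0.67), Banp for Oprd1 (0.66) and Zfp667 for Pdyn (0.63). Each was picked as the highest of some 17633 windows, and the median correlation of a member with all windows was between -0.020 and 0.033.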

How the data were processed

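ATAC-seq measured chromatin accessibility in 30 libraries of ventral hippocampus. The deposited table holds raw counts per region of one common peak set. Trimmomatic, Bowtie2, Picard, Genrich 0.6.1 and GRCm38 are named in the submitters' processing notes. How the authors merged regions, and whether reads, fragments or insertions were counted, is not given in the sources used here, and these choices affect depth and peak width. The table had 2 further columns that match no sample, which were not used. Its coordinates are printed as deposited.

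Samples were grouped by the labels. The 8 genes, the pathway and marker lists, and the rule for named peaks (the gene-end peak, the peaks of smallest p in the averaged acute and averaged chronic tests, and any called peak) were chosen with earlier results of these data known; peaks named outside that rule, such as Oprm1 peaks 1 and 18, Pomc peak 1 and the peaks of the sex comparisons, were chosen after their values were seen. Counts were fitted in edgeR 4.0.16 (R 4.3.3) over all 257143 peaks left by filterByExpr, and again over 17633 gene windows, each the sum of the peaks within 10 kb of a RefSeq protein coding gene. TMM scaling was done apart for both. The model (glmQLFit, robust) held group, sex and batch. To set effects in females against those in males, each group was split by sex and batch was kept. Tests were quasi-likelihood F-tests with Benjamini-Hochberg adjustment over all features, called under 0.05. Intervals are 95% intervals of fitted coefficients. Printed window levels use the scaling of the peak fit. The fit was also run on simulated counts that held no batch or sex effect. The acute log2 changes placed in them were larger than any change of a member window, so that run cannot speak for changes this small. P-values set each fitted change against the variation between libraries, each from 1 animal. The median peak had a mean of 58.97 counts a library. DESeq2 1.42.0, other scalings, filters, covariates and left-out libraries, batches and sexes were tried as alternatives. Sequences came from RefSeq, which here held promoters of 5 members. Proteins, and promoters of Penk, Pnoc and Oprk1, were not used here.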

Additional observations from a re-analysis of the deposited data

Results flagged for a closer look

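The values of windows and named peaks were checked for a sample far from the rest of its group (Dixon's test, 95% level). Of 92 group values 8 had one, and chance gives about 1 in 20. Animal 45, a handled 0 min female of batch 4, accounts for 7 of the 8. It had the highest value of its group for the Pdyn window (3.37 CPM per kb, the other 7 mice 2.57 to 2.80), the Oprm1 window (4.19, others 3.09 to 3.37) and the Oprl1 window (4.85, others 3.85 to 4.27). It was also highest at Pdyn peak 2 (3.15 CPM, others 1.33 to 2.13), Pnoc peak 6 (1.63, others 0.581 to 0.960), Oprm1 peak 14 (3.94, others 1.79 to 2.69) and Oprl1 peak 2 (35.8, others 23.2 to 28.4). The same library had the largest share of counts in gene-end peaks, 35.5%. Its TMM factor was 0.875, against 0.971 to 1.03 in the other libraries, and a low factor raises the CPM of every peak alike. The other value was a low one, Oprm1 peak 14 in animal 71, a handled 45 min male of batch 4, with 1.52 CPM against 2.11 to 2.50 in the other 6 mice.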

How the results depend on the processing

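Under all alternatives run, the number of member peaks and of member gene windows called stayed at 0 in each of the 10 comparisons. The most calls over all features came for the averaged acute effect, 1766 of 257143 peaks and 968 of 17633 windows. Even at those shares, 0 is close to what is given among 70 peaks and 7 windows, so it does not set the members apart. Of 392 alternative values of log2 changes (28 changes of named peaks and windows), 361 kept their sign, none was called, and the smallest adjusted p was 0.091, for the Oprm1 window over acute restraint in a fit that adjusted for how much of each library fell in its top 1% of peaks. The single peaks among the 28 were picked by their p in these same libraries, which the alternatives fit again in whole or in part. Their kept signs are therefore not separate evidence. The 31 values that changed sign were all of uncalled changes, and the cause was not tested. For acute restraint they were, with females alone, 0.0075 (Penk peak 3), 0.0052 (Penk window), -0.042 (Pnoc window) and -0.071 (Oprd1 window); with males alone, 0.033 (Pdyn) and 0.023 (Pomc); without batch 1, 0.024 (Pomc) and -0.010 (Oprd1); without batch 2, 0.026 (Penk) and 0.013 (Pdyn); without batch 3, 0.0093 (Pomc), -0.0064 (Pnoc) and -0.0022 (Oprd1); without batch 4, -0.0075 (Pnoc); without covariates, 0.00014 (Pomc); over gene bodies alone, 0.019 (Penk) and -0.0014 (Pnoc); and without peaks shared with another gene, -0.0028 (Pnoc). For chronic restraint they were, with females alone, -0.022 (Penk peak 2); with males alone, -0.0069 (Penk), -0.00015 (Pomc), -0.035 (Pnoc), -0.017 (Oprd1) and -0.0092 (Oprl1); without batch 2, -0.00061 (Pnoc peak 9), -0.014 (Pnoc) and -0.0053 (Oprd1); without batch 3, -0.0078 (Penk) and -0.0079 (Oprl1); over gene bodies alone, -0.0077 (Pdyn); and without peaks shared with another gene, 0.019 (Oprm1).

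The counts over all features moved far more. For the averaged acute effect 299 peaks were called in the fit reported, 20 with females alone, 438 with DESeq2, 681 without animal 45 and 1766 with the top-peak share as covariate. For gene windows the 207 became 16 with females alone, 388 with DESeq2, 295 without animal 45 and 968 with that covariate. In chronic mice the 7 peaks ranged over 0 to 56 and in handled mice the 28 over 0 to 375, and the windows over 0 to 43 (9 reported) and 1 to 148 (25 reported). For chronic restraint the 0 peaks reached at most 3 averaged and 4 at 0 min, and the 0 windows 8. For sex, 80 windows ranged over 17 to 120 and 90 peaks over 56 to 106. The single peak for the acute effect by sex was lost in 4 settings. DESeq2 was not run for the differences between sexes. No paired analysis was possible because each animal number belongs to 1 mouse.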
